A study of Mus musculus with 6 samples.

Results

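The 10 genes described here encode transcription factors that mark or shape fibroblast identity: Erg, Ebf1, Ebf2, Ebf3, Foxc1, Foxc2, Tbx18, Zic1, Lhx8 and Twist1. All 10 were found once each among the 32285 genes of the count matrices. The list was chosen with measured values in view, since Erg was lower and Ebf3 higher after deletion of Tgfbr2 in the same libraries, and the other 8 were added to show how far related factors moved with them. For that reason the values of Erg and Ebf3 in the comparison of Tgfbr2-cKO with Ctrl are a description and support nothing further.

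Nuclei came from photothrombotic cortical lesions, in which light-activated dye closes cortical vessels, taken 7 or 21 days after the injury (dpi). The 6 libraries were Ctrl (wild-type mice, no treatment listed), ADWA11 (wild-type mice given an antibody that blocks integrin αvβ8, a surface protein that frees TGFβ from its latent form, from the day of injury and weekly after that) and Tgfbr2-cKO (Col1a2(creER); Tgfbr2(flox) mice, in which tamoxifen-activated Cre removes the TGFβ receptor gene from cells that use the Col1a2 promoter), each at both times. Every group was 1 library that pooled 2 mice, with male and female tissue combined, so no test between conditions was run and intervals below cover counting error only. Nuclei with Xist and no Y-linked transcripts, or the reverse, gave a separate value for the female and the male animal of each pool, which shows how far 2 mice of a group lay apart but cannot separate animal from sex.

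Fibroblasts of the brain coverings and vessels arise from mesoderm and neural crest, and a small set of factors keeps their identity. Foxc1 and Foxc2 are forkhead factors needed for the meninges to form, Zic1 is a zinc finger factor of the meninges, Tbx18 is a T-box factor of mural and perivascular cells, and Twist1 is a basic helix-loop-helix factor of cranial mesenchyme. Erg is an ETS factor best known from endothelium, the Ebf proteins are early B cell factors that also act in mesenchyme and fat, and Lhx8 is a LIM homeobox factor of the forebrain and jaw. TGFβ signals through Tgfbr2 to SMAD proteins and drives fibroblasts towards contractile, matrix-making myofibroblasts.

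After filtering, 61917 of 67360 barcodes remained, and 10157 nuclei were kept as fibroblast-like. At 7 dpi there were 1631 from Ctrl, 1895 from ADWA11 and 290 from Tgfbr2-cKO. At 21 dpi there were 3368, 2475 and 498. Fibroblast sub-clusters left out as doublets or as led by other classes held further nuclei, unequally between libraries. Apart from the bone-matrix one described below, they held 581, 473 and 229 nuclei at 7 dpi in the same order. At 21 dpi they held 2607, 605 and 348. The summed unique molecular identifiers (UMIs) of the kept nuclei ranged from 1862038 in Tgfbr2-cKO at 7 dpi to 25096261 in Ctrl at 21 dpi. The Tgfbr2-cKO values are therefore the least precise. All 9 fibroblast markers were detected in each library, and at 7 dpi their sum was 9416 CPM in Ctrl, 8142 in ADWA11 and 5627 in Tgfbr2-cKO. At 21 dpi it was 7895, 6018 and 2598 CPM, lowest in the library in which Ebf3, Ebf1 and Lhx8 were highest, and its part in those results was not tested. Between 21 and 61 barcodes were shared by any 2 libraries, at most 0.513% of the smaller. Levels are given as CPM, a gene's UMIs divided by all non-mitochondrial UMIs of these nuclei in a library and put on the usual CPM scale, with exact Poisson 95% intervals, and are not compared between genes because gene lengths differ. At 7 dpi Tgfbr2 itself was at 314 CPM in Ctrl, 250.2 in ADWA11 and 242 in Tgfbr2-cKO. At 21 dpi it was at 231, 195 and 191 CPM. Those counts are for the whole gene, so they do not show how much of the deleted part was lost.

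The windows around the start sites of Erg, Ebf3 and Lhx8 are shown because these 3 genes had large differences between libraries. RefSeq windows (build GRCm38.p6, 250 bases before to 50 after the start) were found for 8 of the 10 genes, without Ebf2 and Foxc2. Capitals mark CAGAC on either strand, a core that SMAD proteins bind.
Erg promoter (chr16:95586544-95586843, minus strand): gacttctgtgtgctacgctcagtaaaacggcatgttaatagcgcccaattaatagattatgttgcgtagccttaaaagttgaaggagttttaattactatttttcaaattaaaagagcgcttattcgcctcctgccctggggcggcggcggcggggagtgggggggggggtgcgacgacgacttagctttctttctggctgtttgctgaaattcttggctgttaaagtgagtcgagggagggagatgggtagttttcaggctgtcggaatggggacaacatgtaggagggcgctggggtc
Ebf3 promoter (chr7:137314396-137314695, minus strand): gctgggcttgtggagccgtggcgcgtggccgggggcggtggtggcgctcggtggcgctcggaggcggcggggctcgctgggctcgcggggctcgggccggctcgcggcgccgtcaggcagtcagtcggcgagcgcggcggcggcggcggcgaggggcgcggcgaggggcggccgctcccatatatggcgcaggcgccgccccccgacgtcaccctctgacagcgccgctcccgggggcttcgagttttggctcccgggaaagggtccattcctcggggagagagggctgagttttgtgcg
Lhx8 promoter (chr3:154330511-154330810, minus strand): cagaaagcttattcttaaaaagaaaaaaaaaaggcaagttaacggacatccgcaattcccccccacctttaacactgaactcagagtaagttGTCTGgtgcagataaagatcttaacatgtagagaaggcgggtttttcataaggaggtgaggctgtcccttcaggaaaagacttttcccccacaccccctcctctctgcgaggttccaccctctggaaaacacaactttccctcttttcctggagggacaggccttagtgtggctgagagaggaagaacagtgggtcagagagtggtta
The Lhx8 window starts from a RefSeq site 99 bases from the GENCODE start of the gene. Where RefSeq lists several windows for a gene, as the 3 of Erg, only the one nearest to the GENCODE start was used. The motif was present in the Lhx8 window and absent from the windows shown for Erg and Ebf3. It was found in 3 of the 8 members (Tbx18, Lhx8 and Twist1), against 49.6% of all 32851 windows. The palindromic EBF motif, also sought on both strands, was found in none of the 8 and in 0.904% of all windows. A match or its absence in a window this short is a description of the letters only.

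Erg was lower in all 4 perturbed libraries than in the Ctrl library of its time. Its level was 169 CPM (95% interval 162 to 176) in Ctrl, 30.5 (28.1 to 33) in ADWA11 and 30.1 (22.7 to 39.1) in Tgfbr2-cKO at 7 dpi. At 21 dpi it was 97.9 (94.1 to 102), 17.5 (15.7 to 19.4) and 6.36 (4.29 to 9.08). The ratio to Ctrl was 5.61-fold lower in Tgfbr2-cKO and 5.53-fold lower in ADWA11 at 7 dpi, and 15.4-fold and 5.61-fold lower at 21 dpi. The 2-fold differences at 21 dpi depended on the sub-clusters of fibroblasts compared, and stayed in 12 of 13 alternatives in Tgfbr2-cKO and 11 of 13 in ADWA11. Without sub-clusters 6 and 7 the log2 ratio went from -3.94 to -0.83 in Tgfbr2-cKO and from -2.49 to -0.70 in ADWA11. The -0.83 rested on the 23 Erg UMIs of sub-cluster 3, 22 of them from the male mouse. In sub-cluster 0 Tgfbr2-cKO had 0 Erg UMIs, a log2 ratio of at most -2.73. With the sub-cluster mix of Ctrl imposed the ADWA11 ratio was -0.35, while the Tgfbr2-cKO ratio stayed past 2-fold. In each of these 4 comparisons both perturbed mice lay below both Ctrl mice, for example 42.3 and 15 CPM in the Tgfbr2-cKO mice against 147 and 199 CPM in the Ctrl mice at 7 dpi. Such an order is common with 2 mice a side: it was seen in 18.6% of all genes in Tgfbr2-cKO and 23.6% in ADWA11 at 7 dpi, and in 31.0% and 28.5% at 21 dpi. All of these ratios share the Ctrl library of their time. Between the Ctrl libraries Erg was 1.72-fold lower at 21 dpi, a log2 ratio of -0.78 that became -2.59 without sub-clusters 6 and 7 of the fibroblasts. In Tgfbr2-cKO its log2 ratio to ADWA11 was -1.46 (-2.05 to -0.92) at 21 dpi, with no difference detectable at 7 dpi (-0.02, -0.44 to 0.38).

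The Erg gene is on chromosome 16 (95359169 to 95586593, minus strand, GRCm38) and no other gene of the matrices overlaps it. In Tgfbr2-cKO the remaining Erg signal rested on few nuclei, since the 5 nuclei with the most Erg UMIs held 51.8% of its 56 UMIs at 7 dpi and 63.3% of its 30 UMIs at 21 dpi. The 2 mice at 21 dpi were at 0.539 and 10.4 CPM. Thinned to 2000 UMIs per nucleus, the share of fibroblast nuclei with an Erg UMI at 7 dpi was 19.9% in Ctrl, 4.57% in ADWA11 and 4.78% in Tgfbr2-cKO (35.7%, 11.8% and 8.97% without thinning). At 21 dpi the thinned shares were 12.1%, 2.77% and 0.422% (23.2%, 7.43% and 2.41% without thinning). In myeloid nuclei, which should lack Erg, the thinned share was 0.346% (median depth per library of 3351 to 6724 UMIs, and 5745 to 9785 in fibroblasts), so that the value in Tgfbr2-cKO at 21 dpi cannot be told from background.

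Ebf3 was at 2.44 CPM (1.69 to 3.4) in Ctrl, 6.62 (5.53 to 7.86) in ADWA11 and 20.4 (14.4 to 28) in Tgfbr2-cKO at 7 dpi. At 21 dpi it was at 2.35 (1.79 to 3.03), 25.4 (23.2 to 27.7) and 420.1 (402 to 439) CPM. Tgfbr2-cKO was 8.38-fold higher than Ctrl at 7 dpi and 179-fold higher at 21 dpi, where Ebf3 had the highest ratio of the 11654 genes compared. ADWA11 was 10.8-fold higher than Ctrl at 21 dpi. At 7 dpi the gene's mean over ADWA11 and Ctrl was under the minimum of 5 CPM, and its ratio of 2.72 was not counted.

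For Ebf3 the mice of a pool lay far apart in several libraries, Ctrl at 21 dpi among them. At 7 dpi the female and the male Tgfbr2-cKO mouse were at 4.1 and 32.4 CPM, beside Ctrl mice at 3.18 and 2.32 CPM. At 21 dpi the ADWA11 mice were at 4.95 and 35.7 CPM, beside Ctrl mice at 3.85 and 0.564 CPM. In the later Tgfbr2-cKO library both mice were high, at 555 and 289 CPM. In nuclei of 1 sex alone the ADWA11 ratio at 21 dpi was 0.36 on the log2 scale in female and 5.98 in male nuclei, and the Tgfbr2-cKO ratio at 7 dpi was 0.37 in female nuclei. At 7 dpi, 5 nuclei held 68.4% of the 38 Ebf3 UMIs of Tgfbr2-cKO. The thinned share of nuclei with Ebf3 was 0.322% and 0.561% in the Ctrl libraries, below the 0.88% of myeloid nuclei, and 27.8% in Tgfbr2-cKO at 21 dpi (1.35%, 0.98% and 40.4% without thinning). In Tgfbr2-cKO at 7 dpi it was 1.84% (0.599% to 4.24%, 5 of 272 nuclei), which cannot be told from that background. The Ctrl levels of Ebf3 cannot be told from background either, so the sizes of the folds over Ctrl are rough. With log-normalised clustering the Tgfbr2-cKO ratios of Ebf3 were 1.67 and 6.01 on the log2 scale, in place of 3.07 and 7.48.

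**Figure D1:**
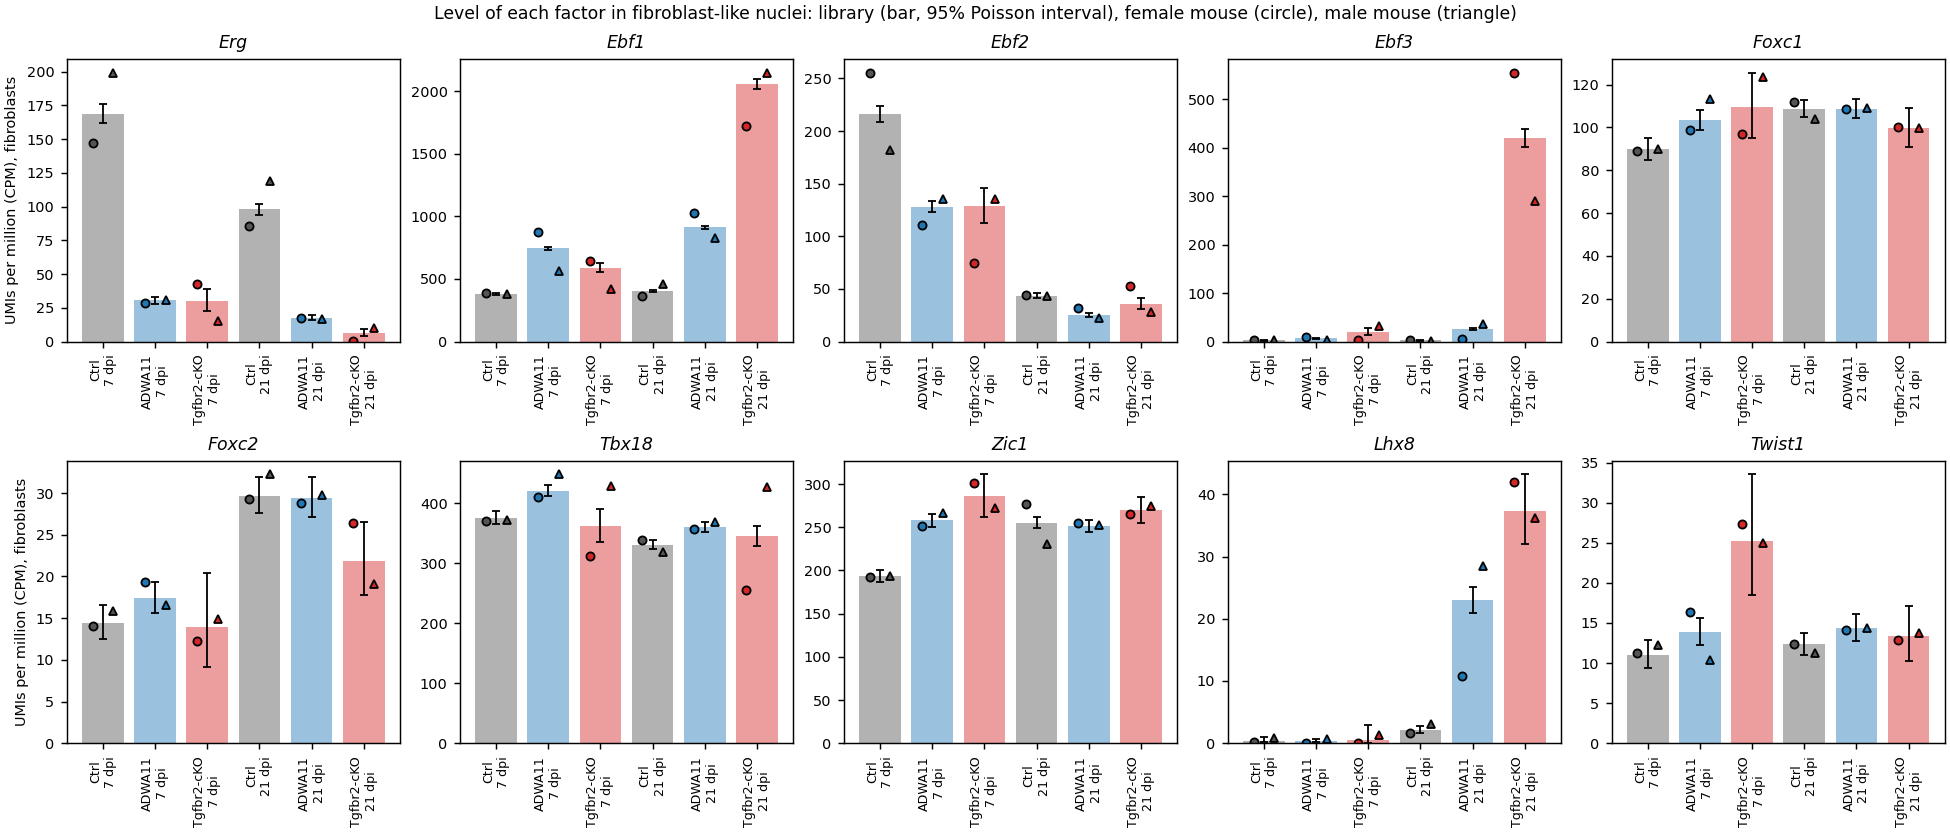
Level of each of the 10 factors (CPM, vertical axis, its own scale in each panel) in the fibroblast-like nuclei of the 6 libraries (horizontal axis). Bars are libraries with exact Poisson 95% intervals, circles the female and triangles the male mouse of each pool. Erg is lower in all 4 perturbed libraries, Ebf3 stands at 420.1 CPM in Tgfbr2-cKO at 21 dpi, and the library levels of Foxc1 and Tbx18 lie close together.

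Ebf1 was higher in the summed fibroblasts of every perturbed library, with both mice above both Ctrl mice, as in 31.8% of all genes for Tgfbr2-cKO and 35.8% for ADWA11 at 7 dpi, and in 29.9% and 27.3% at 21 dpi. Ebf1 was at 381 CPM in Ctrl, 747 in ADWA11 and 592 in Tgfbr2-cKO at the earlier time. By 21 dpi the levels were 402, 911 and 2059 CPM in the same order. The lowest perturbed mouse at 7 dpi was at 424 CPM, above both Ctrl mice at 387 and 381 CPM, and at 21 dpi it was at 826 CPM against 364 and 459 CPM. The ratio to Ctrl passed 2-fold at 21 dpi, at 5.12-fold in Tgfbr2-cKO and 2.26-fold in ADWA11, and lay just under it in ADWA11 at 7 dpi at 0.97 on the log2 scale (0.93 to 1.02). The Tgfbr2-cKO ratio at 21 dpi went from 2.36 to 0.34 on the log2 scale without sub-clusters 6 and 7, and to 0.60 with the imposed mix. The ADWA11 ratio at 21 dpi was 0.97 with log-normalised clustering and with percentile filters pooled over libraries, and 0.85 in male nuclei. In Tgfbr2-cKO at 7 dpi the log2 ratio of 0.64 became 0.12 with sub-clusters led by other classes kept. The thinned share of nuclei with Ebf1 was 31.6% (26.1% to 37.5%) there and 30.3% (28.0% to 32.7%) in Ctrl, so no difference in share was detectable. In that Tgfbr2-cKO library 5 nuclei held 22.1% of the 1102 Ebf1 UMIs.

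Ebf2 was lower at 21 dpi than at 7 dpi under all 3 conditions. At 7 dpi it was at 216 CPM in Ctrl, 128 in ADWA11 and 128 in Tgfbr2-cKO. By 21 dpi it was at 43.5, 25.2 and 36 CPM. Ctrl at 21 dpi was 4.96-fold lower than Ctrl at 7 dpi, and no mouse at 21 dpi reached the lowest mouse at 7 dpi, at 75.1 CPM. Both Ctrl mice were lower at 21 dpi, as in 34.7% of all genes, and for Foxc2 both were higher, as in 39.4%. The log2 ratio of Ebf2 between the Ctrl libraries, -2.31, became -1.20 with the sub-cluster mix imposed. It was -1.79 within sub-cluster 2 and -0.42 within sub-cluster 3. In sub-cluster 0 Ebf2 went the other way, at 43.6 CPM at 21 dpi and 18.4 CPM, from 10 UMIs, at 7 dpi (log2 ratio 1.24, 0.35 to 2.31). The Ebf2 ratio of a perturbed library to Ctrl lay between -0.79 and -0.27 on the log2 scale. In Tgfbr2-cKO at 21 dpi the direction was not stable, since the ratio kept its sign in 9 of 13 alternatives, from -1.51 with the sub-cluster mix of Ctrl imposed to 0.49 without sub-clusters 6 and 7. The mice of that library, at 52.8 and 28.3 CPM, lay on either side of the Ctrl mice at 43.9 and 43.1 CPM.

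Lhx8 was near 0 at 7 dpi, with 6, 7 and 1 UMIs in Ctrl, ADWA11 and Tgfbr2-cKO. At 21 dpi it was at 2.11 CPM (1.58 to 2.76) in Ctrl, 22.9 (20.9 to 25.1) in ADWA11 and 37.3 (32 to 43.2) in Tgfbr2-cKO. These were 10.9-fold and 17.7-fold higher than Ctrl. The Ctrl value came from 53 UMIs, 52.8% of them in 5 nuclei, so the sizes of these folds are rough. The thinned share of nuclei with Lhx8 at 21 dpi was 0.405% in Ctrl, 4.00% in ADWA11 and 6.54% in Tgfbr2-cKO. The mice were at 1.69 and 3.16 CPM in Ctrl, 10.8 and 28.5 in ADWA11 and 42 and 36.2 in Tgfbr2-cKO, so that both mice of each perturbed library lay above both Ctrl mice, as in 27.3% of all genes for ADWA11 and 29.9% for Tgfbr2-cKO.

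The library levels of the forkhead, T-box and zinc finger factors stayed within 2-fold of Ctrl. Foxc1 lay between 89.9 and 109.6 CPM over the 6 libraries and Tbx18 between 331 and 421 CPM. The mice lay further apart, with Tbx18 at 255 and 428 CPM in Tgfbr2-cKO at 21 dpi, on either side of the Ctrl mice at 338 and 319 CPM. Zic1 was at 193 CPM in Ctrl at 7 dpi, at 258 in ADWA11 and 286 in Tgfbr2-cKO, and between 251 and 269.8 CPM in the 3 libraries at 21 dpi. Foxc2 was at 14.5, 17.4 and 14 CPM at 7 dpi and at 29.7, 29.4 and 21.8 CPM at 21 dpi, so that Ctrl was 2.05-fold higher at the later time. That Foxc2 ratio lay under 2-fold with TMM scaling (0.99 on the log2 scale) and with log-normalised clustering (0.48). Twist1 lay between 11 and 14.4 CPM in 5 libraries and at 25.2 CPM (18.5 to 33.6) in Tgfbr2-cKO at 7 dpi, 2.29-fold above Ctrl, from 47 UMIs. Without the 5 nuclei richest in each gene that Twist1 ratio was 0.92 on the log2 scale, and with sub-clusters led by other classes kept it was 0.88.

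The members past a 2-fold difference were counted beside all genes with enough signal. In Tgfbr2-cKO at 7 dpi, 1 of 9 members with enough signal was at least 2-fold lower (Erg) and 2 higher (Ebf3, Twist1), where 2.35% and 6.58% of all 11475 genes were. At 21 dpi 1 of 10 was lower (Erg) and 3 higher (Ebf1, Ebf3, Lhx8), against 4.87% and 7.24% of 11654 genes. In ADWA11 at 7 dpi 1 of 8 was lower (Erg), against 1.62% of 11331 genes, and none higher, against 2.82%. At 21 dpi 1 of 10 was lower (Erg), against 1.79%, and 3 were higher (Ebf1, Ebf3, Lhx8), against 2.1%. Erg and Ebf3 were chosen on the Tgfbr2-cKO contrasts, and the ADWA11 ratios share their Ctrl libraries. Ebf3 in Tgfbr2-cKO at 7 dpi, and Ebf3 and Lhx8 at 21 dpi, reached the minimum of 5 CPM only through the perturbed library. For these reasons nothing is read from any of these counts. Between the Ctrl libraries 1 of 8 was lower at 21 dpi (Ebf2), against 5.33%, and 1 higher (Foxc2), against 6.85%. The member nearest to 2-fold on the inside and on the outside lay, on the log2 scale and without sign, at 1.19 (Twist1) and 0.75 (Ebf2) in the earlier Tgfbr2-cKO comparison and at 2.36 (Ebf1) and 0.44 (Foxc2) in the later one. With ADWA11 they were 2.47 (Erg) and 0.97 (Ebf1) early and 1.18 (Ebf1) and 0.79 (Ebf2) late, and between the Ctrl libraries they were 1.04 (Foxc2) and 0.78 (Erg). The median log2 ratio of the members lay between 0.06 and 0.29 over the 5 comparisons.

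**Figure D2:**
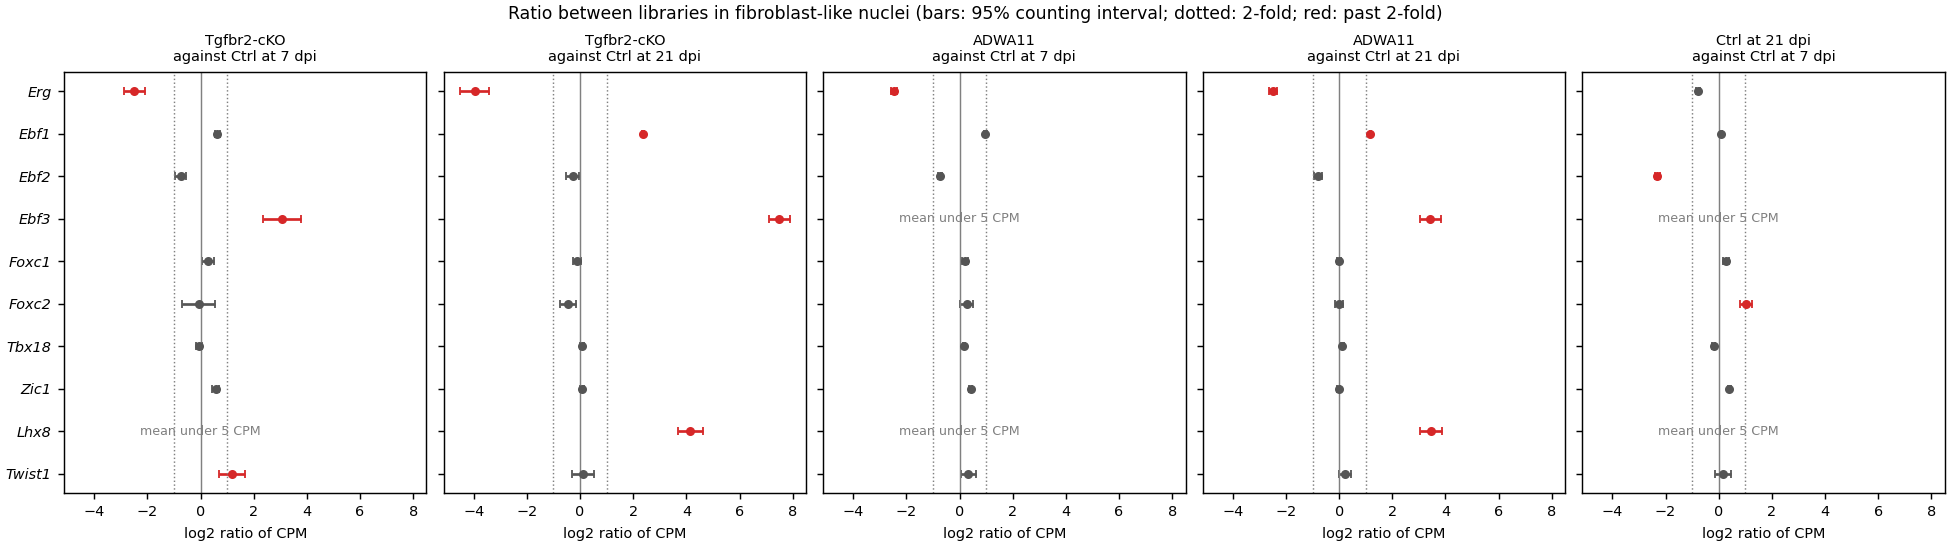
Log2 ratio of CPM between 2 libraries (horizontal axis) for each factor (vertical axis) in the 5 comparisons, with exact 95% counting intervals. Red points passed 2-fold (dotted lines), and factors with a mean under 5 CPM carry no point. Erg lies left of the dotted line in all 4 comparisons of a perturbed library with Ctrl, and most other factors lie near 0.

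Fibroblasts were split into sub-clusters without using any gene of the lists, and 6 were kept. Sub-cluster 2 was myofibroblast-like, sub-cluster 6 dural-like and sub-cluster 8 proliferating-like by markers. The name of sub-cluster 6 is weak, since it raised 3 dural and 2 late inner markers. Sub-cluster 2 raised 3 of the 8 myofibroblast markers, and a left-out sub-cluster led by bone-matrix genes raised 6. That one held 213 Ctrl, 182 ADWA11 and 5 Tgfbr2-cKO nuclei at 7 dpi. At 21 dpi it held 548, 381 and 2. Values given below for the myofibroblast-like sub-cluster do not include it. With log-normalised clustering the clusters with leading genes like those of sub-clusters 2 and 6 had no name. With filters pooled over libraries the one like sub-cluster 6 had none. In both, the one like sub-cluster 6 raised as many late inner as dural markers. Both alternatives kept a myofibroblast-like cluster with Tnn and Gm20619 among its leading genes. Sub-clusters 0 (with Chrm3, Slc47a1 and Slc47a2 among its leading genes), 3 (Lama1, Col4a6 and Slc6a13) and 7 (Gabrg3, Ebf3 and Lingo2) were left unnamed. The libraries filled them unequally. At 7 dpi sub-cluster 2 held 61.6% of Ctrl, 62.2% of ADWA11 and 45.2% of Tgfbr2-cKO fibroblasts. At 21 dpi sub-cluster 0 held 59.7% of Ctrl and 93.2% of ADWA11 but 19.5% of Tgfbr2-cKO fibroblasts. The dural-like sub-cluster 6 made up 31% of Ctrl at that time, and 93.4% of its nuclei were from that library. Sub-cluster 7 made up 62.7% of Tgfbr2-cKO, and 93.1% of its nuclei were from that one. A cluster found mostly in 1 library may be that library and not a cell type.

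**Figure D3:**
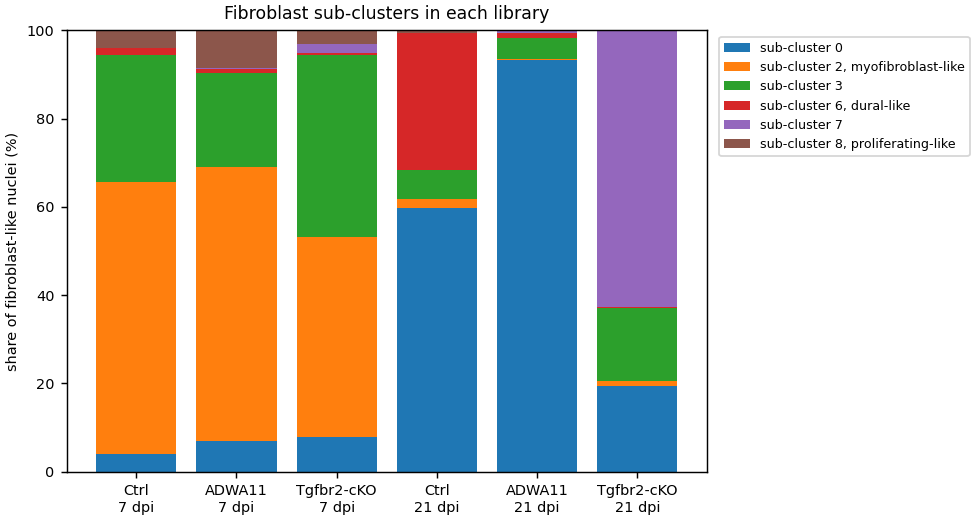
Share of fibroblast-like nuclei (%, vertical axis) in each kept sub-cluster (colours) for the 6 libraries (horizontal axis). Sub-cluster 7 makes up 62.7% of Tgfbr2-cKO at 21 dpi and is almost absent elsewhere, and the dural-like sub-cluster 6 makes up 31% of Ctrl at 21 dpi.

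At 7 dpi the lower Erg was present within the myofibroblast-like sub-cluster. There it was at 227 CPM (217 to 237) in Ctrl, 36.7 (33.4 to 40.3) in ADWA11 and 33 (22.3 to 47.2) in Tgfbr2-cKO. The mice were at 34.7 and 40.3 CPM in ADWA11, 50.4 and 11 CPM in Tgfbr2-cKO, and 194 and 261 CPM in Ctrl. The proliferating-like sub-cluster had 216 CPM in Ctrl and 32.9 CPM in ADWA11. Sub-cluster 3 differed: Erg was at 31.4 CPM in Ctrl, 6.41 in ADWA11 and 31.5 in Tgfbr2-cKO, so that no difference between Tgfbr2-cKO and Ctrl was detectable there (log2 ratio 0.00, -0.73 to 0.67). In sub-cluster 0 the direction was opposite in ADWA11, at 44 CPM (33.1 to 57.4) in 131 nuclei against 7.38 CPM (2.01 to 18.9), from 4 UMIs, in 67 nuclei of Ctrl.

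At 21 dpi the sub-clusters differed in Erg within Ctrl. Erg was at 245 CPM (234 to 256) in the dural-like sub-cluster of Ctrl, which held 1985 of that library's 2457 Erg UMIs, and at 22 CPM in its sub-cluster 0. In sub-cluster 0 ADWA11 was at 17.5 CPM, and Tgfbr2-cKO had 0 UMIs in 97 nuclei, a log2 ratio of at most -2.73 at a floor of 3 UMIs. In sub-cluster 3 Erg was at 7.28 CPM in Ctrl and 43.9 CPM (27.8 to 65.9) in Tgfbr2-cKO, but 22 of the 23 UMIs came from the male mouse (85.3 CPM). The female mouse was at 3.83 CPM, from 1 UMI, beside Ctrl mice at 4.43 and 5.62 CPM. Sub-cluster 7 of Tgfbr2-cKO was at 2.16 CPM.

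Ebf3 in Tgfbr2-cKO at 21 dpi was carried by sub-cluster 7. That sub-cluster was at 608 CPM (581 to 635) and held 1974 of the library's 1982 Ebf3 UMIs, with 777 and 446 CPM in the female and the male mouse. In sub-cluster 0 the gene was at 2.83 CPM in Ctrl, 25.4 in ADWA11 and 2.21 in Tgfbr2-cKO at 21 dpi. The ADWA11 value pooled a female mouse at 4.55 CPM, beside 4.37 CPM in the Ctrl female, and a male mouse at 35.7 CPM. At 7 dpi the myofibroblast-like sub-cluster had 2.25 CPM in Ctrl, 7.78 in ADWA11 and 38.5 in Tgfbr2-cKO, where the female mouse was at 8.4 CPM, from 3 UMIs, and the male at 68.5 CPM. Ebf1 followed the same split at 21 dpi, at 2764 CPM in sub-cluster 7 against 588 CPM in sub-cluster 0 of Tgfbr2-cKO. The 588 CPM pooled a female mouse at 260.2 CPM and a male mouse at 810.2 CPM, which lay below and above the Ctrl mice at 338 and 418 CPM. Sub-cluster 3 went the other way in Tgfbr2-cKO, where Ebf1 had log2 ratios to Ctrl of -0.30 (-0.53 to -0.09) at 7 dpi and -0.30 (-0.56 to -0.04) at 21 dpi. The mice at 7 dpi did not share that direction, with the female at 339 CPM and the male at 261 CPM beside Ctrl mice at 319 and 346 CPM. In ADWA11 Ebf1 was higher within sub-clusters too, at 916 CPM against 372 CPM in sub-cluster 0 at 21 dpi and at 806 CPM against 371 CPM in sub-cluster 2 at 7 dpi. Lhx8 in sub-cluster 0 at 21 dpi was at 2.02 CPM in Ctrl, 22.7 in ADWA11 and 7.72 in Tgfbr2-cKO, and at 51.7 CPM in sub-cluster 7. The 7.72 CPM rested on 7 UMIs, all from the male mouse, and the female mouse had 0 UMIs in 30 nuclei.

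Ebf2 lay at 184 to 247 CPM in sub-cluster 3 of all 6 libraries. In sub-cluster 0 at 21 dpi it was at 43.6 CPM in Ctrl and 16.3 CPM in ADWA11, a log2 ratio of -1.42 (-1.62 to -1.22). The mice there were at 41.3 and 48.3 CPM in Ctrl and 21.0 and 14.1 CPM in ADWA11. Tgfbr2-cKO was at 3.31 CPM in that sub-cluster, from 3 UMIs. In the myofibroblast-like sub-cluster at 7 dpi Ebf2 was at 222 CPM in Ctrl, 113 in ADWA11 and 91.4 in Tgfbr2-cKO. Twist1 in that sub-cluster was at 11.9, 15.6 and 37.4 CPM.

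Without sub-clusters 6 and 7, an alternative chosen after the data were seen, Erg was at -0.83, Ebf1 at 0.34 and Ebf3 at 0.86 on the log2 scale between Tgfbr2-cKO and Ctrl at 21 dpi. Lhx8 was at 1.49, past 2-fold, but its mean was then under the minimum of 5 CPM, so that the count of members past 2-fold was 0. With the sub-cluster mix of Ctrl imposed over sub-clusters 0 and 3, which hold 36.1% of the Tgfbr2-cKO and 66.4% of the Ctrl fibroblasts, the ratios of Erg, Ebf1 and Ebf3 were -2.63, 0.60 and 0.06, and that of Lhx8 was 1.83. The Erg value took the 0 UMIs of sub-cluster 0 in Tgfbr2-cKO as 0, without the floor of 3 UMIs. It therefore rests on sub-cluster 3, where 22 of 23 Erg UMIs came from the male mouse. Lhx8 again had a mean under 5 CPM and was not counted. Ebf2 was counted, at -1.51, with 3 UMIs in sub-cluster 0 of Tgfbr2-cKO. For ADWA11 at 21 dpi this imposed mix gave -0.35 for Erg, 3.10 for Ebf3 and 3.49 for Lhx8. At 7 dpi the imposed mix gave -2.40 for Erg in Tgfbr2-cKO and -2.53 in ADWA11.

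**Figure D4:**
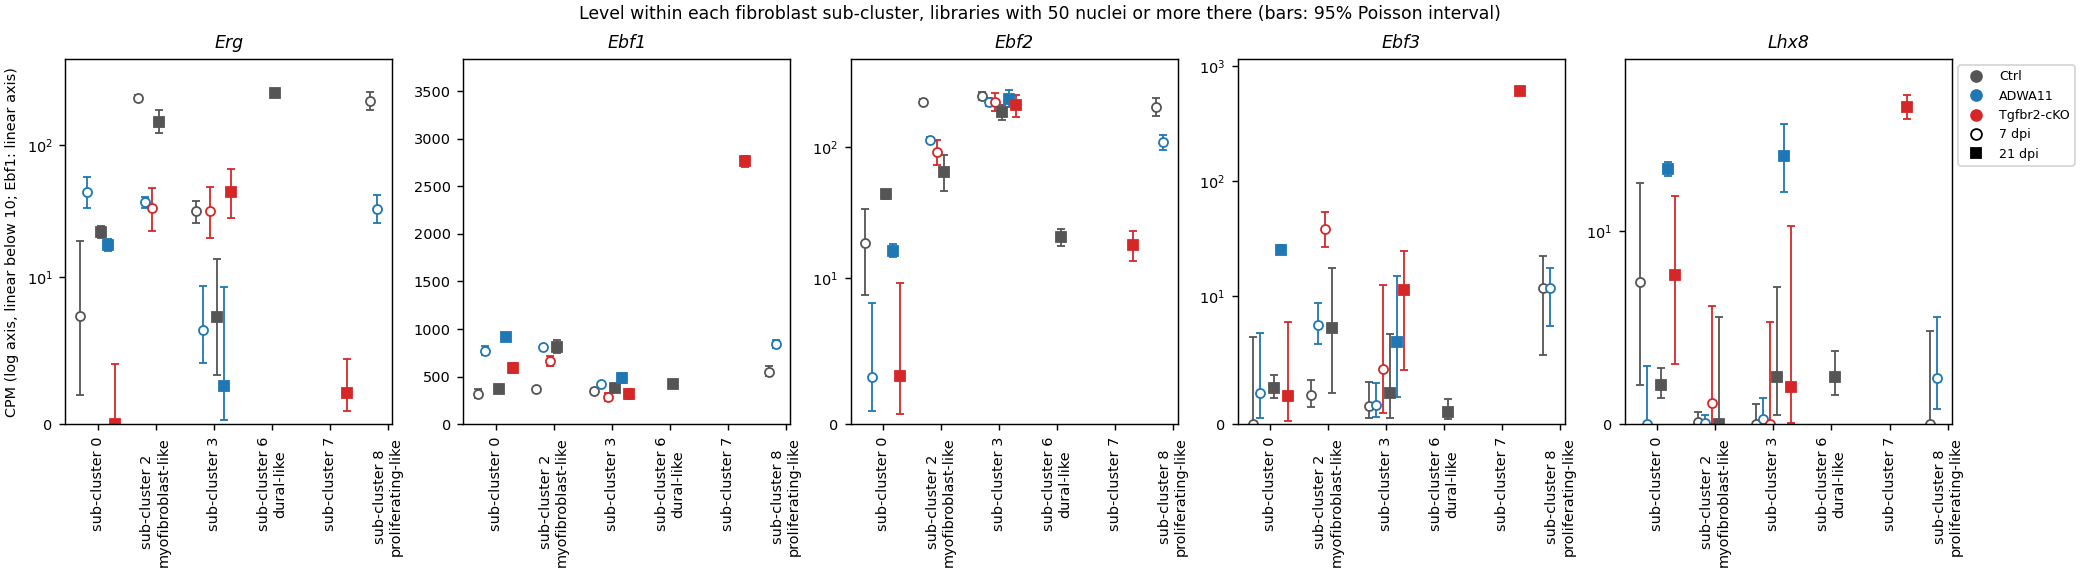
Level (CPM, vertical axis, logarithmic above 10 except for Ebf1) of Erg, Ebf1, Ebf2, Ebf3 and Lhx8 within each kept sub-cluster (horizontal axis), for libraries with 50 nuclei or more there. Open circles are 7 dpi, filled squares 21 dpi, colours the condition, and bars exact Poisson 95% intervals. Ctrl lies above both perturbed libraries for Erg in sub-cluster 2, and Ebf3 is at 608 CPM in sub-cluster 7.

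Outside fibroblasts, Erg was at 384 CPM in endothelial nuclei and Ebf1 at 6794 CPM in mural and 2078 CPM in endothelial nuclei. Ebf3 was at 250.2 CPM and Ebf2 at 488 CPM in mural nuclei. At 7 dpi endothelial Erg was at 425 CPM in Ctrl and 387 in ADWA11, and at 443 CPM in the 37 endothelial nuclei of Tgfbr2-cKO. At 21 dpi the endothelial levels were 337, 354 and 560.2 CPM. Foxc1, Foxc2, Tbx18, Zic1 and Twist1 were at 3.16, 0.73, 4.7, 4.87 and 0.766 CPM in myeloid nuclei.

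In fibroblasts at 7 dpi the 9 endothelial markers summed to 169 CPM in Ctrl, 238 in ADWA11 and 317 in Tgfbr2-cKO. At 21 dpi the sums were 103, 136 and 246 CPM, against 8856 CPM in endothelial nuclei, with all 9 detected in every library. At each time they were higher in the perturbed libraries, which had lower Erg than Ctrl, while between the Ctrl libraries both the sum and Erg were lower at 21 dpi. The 8 mural markers summed to 46.9 to 142 CPM, highest in Tgfbr2-cKO at 21 dpi, against 4820 CPM in mural nuclei, and Higd1b was at 0 in 3 libraries. In each of the 6 libraries the share of nuclei holding a mural marker was higher with an Ebf3 UMI than without one. At 21 dpi it was 62.2% against 32.7% in Tgfbr2-cKO, 39.6% against 23.0% in ADWA11 and 51.5% against 25.7% in Ctrl. At 7 dpi it was 66.7% against 30.2%, 62.5% against 45.3% and 45.5% against 32.9% in the same order. The same direction held for Ebf1 in each library. Nuclei with an Ebf3 UMI, and those with an Ebf1 UMI, also had a higher median depth in each library. Taken as CPM, the summed mural markers were higher with either gene in each library too. With and without Ebf3 they were at 210 and 87.2 CPM in Tgfbr2-cKO and 65.4 and 45.4 CPM in ADWA11 at 21 dpi. In Tgfbr2-cKO at 7 dpi they were at 110 and 84.9 CPM. The 8 neuron markers summed to 200 CPM in Tgfbr2-cKO at 7 dpi and to 23.4 to 78.4 CPM elsewhere. The share of nuclei holding an endothelial marker was lower with an Erg UMI than without one in 5 libraries, by the most in Tgfbr2-cKO at 7 dpi with 26.9% against 64.0%. In Tgfbr2-cKO at 21 dpi the shares were 58.3% and 58.2%, and the marker sum was 461 CPM in the 12 nuclei with Erg and 238 CPM in the others. ADWA11 at 7 dpi also had the higher sum in nuclei with Erg, 263 against 234 CPM. The 6 oligodendrocyte markers summed to 103 CPM in Tgfbr2-cKO, 58 in Ctrl and 55.5 in ADWA11 at 7 dpi. At 21 dpi the sums were 146, 68.1 and 48 CPM, against 14110 CPM in oligodendrocyte nuclei. Among all nuclei, those named neuron numbered 5917 in Tgfbr2-cKO, 101 in Ctrl and 26 in ADWA11 at 7 dpi. At 21 dpi they numbered 783, 148 and 76. Oligodendrocyte nuclei numbered 838, 46 and 57 at 7 dpi and 690, 146 and 23 at 21 dpi in the same order. The part of the endothelial, mural, neuron and oligodendrocyte markers in the results was not tested.

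**Figure D5:**
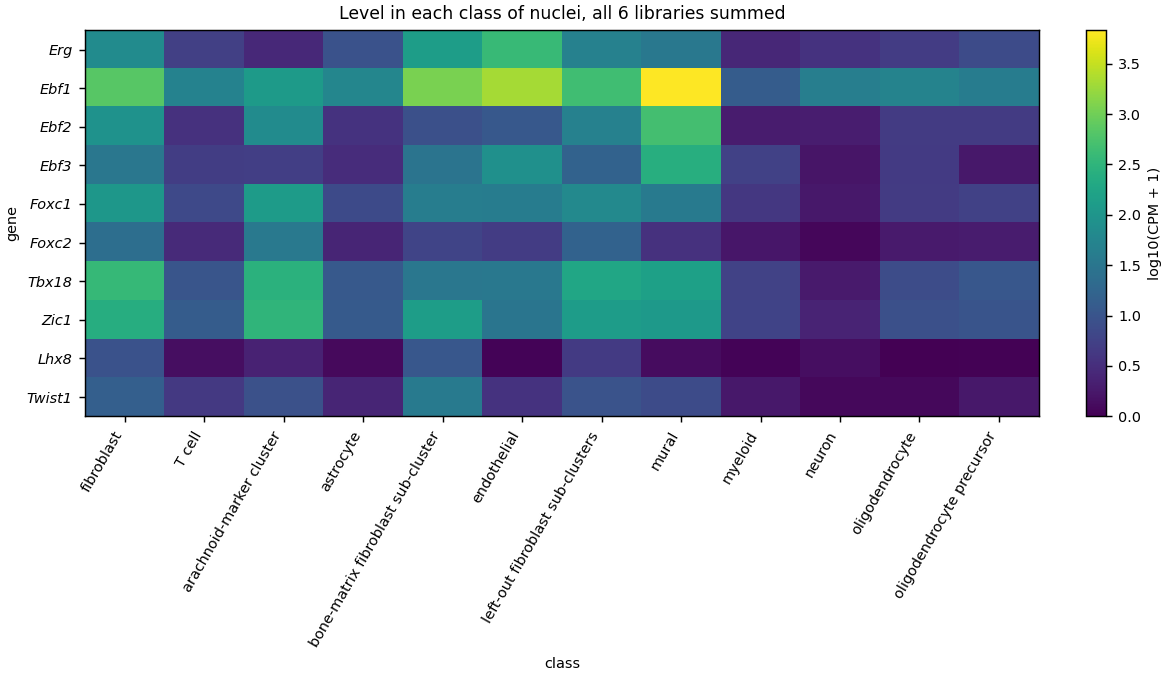
Level as log10(CPM + 1) (colour) of each factor (vertical axis) in each class of nuclei (horizontal axis), all 6 libraries summed. Ebf1 is brightest in mural nuclei, Erg in endothelial nuclei, and Foxc1, Tbx18 and Zic1 are shared by fibroblasts and the cluster led by arachnoid markers.

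Of 34 relatives from the same families, 22 had enough signal in Tgfbr2-cKO at 7 dpi and 20 at 21 dpi. None was 2-fold lower, against 2.35% and 4.87% of all genes, 1 and 3 were 2-fold higher, against 6.58% and 7.24%, and the medians were -0.04 and -0.27, beside 0.08 and 0.00 over all genes. In ADWA11 none of 21 and none of 19 passed in either direction, where 1.62% and 1.79% of all genes were lower and 2.82% and 2.1% higher. The T-box factor Tbx3 was the only relative above 2-fold at both times in Tgfbr2-cKO, at 20.9 against 8.88 CPM and at 8.48 against 2.35 CPM. At 21 dpi Tbx3 reached the minimum of 5 CPM only through the Tgfbr2-cKO library, so nothing is read from that call. Fli1, the ETS factor closest to Erg, was at 237, 167 and 193 CPM at 7 dpi and at 220.2, 168 and 145 CPM at 21 dpi in Ctrl, ADWA11 and Tgfbr2-cKO.

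Of 30 other mesenchymal regulators, 21 and 23 had enough signal in Tgfbr2-cKO. Set beside those same shares of all genes, 1 was 2-fold higher and none lower at 7 dpi, and 3 were higher and 2 lower at 21 dpi, with medians of 0.09 and 0.15. In ADWA11 none of 22 passed at either time. Sox5, an SRY-box factor of cartilage and nerve cells, was the one regulator past 2-fold at both times in Tgfbr2-cKO, at 514 against 257 CPM and at 814 against 132 CPM. Its ratio at 7 dpi was 1.00 on the log2 scale, and the TMM shift of -0.17 for that comparison would take it under 2-fold. Tgfbr2-cKO libraries held more neuron nuclei than Ctrl at both times, and the part of neuron RNA in the Sox5 values was not tested. Between the Ctrl libraries 3 of 20 relatives were 2-fold lower at 21 dpi and none higher, and 6 of 23 regulators were lower and 3 higher, beside 5.33% lower and 6.85% higher of all genes.

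The genes most like Erg and Ebf3 were sought over the 19 sets of sub-cluster and library with 50 nuclei or more, among 9975 genes. For Erg they were Lsp1, Adcy7, Dab2ip, Cdr2 and Rftn1, with Pearson r of log2(CPM + 1) from 0.88 to 0.91. For Ebf3 they were Chl1, Fst, Nnmt, Gm6249 and Ebf1, with r from 0.80 to 0.83. The sets share libraries, and sub-cluster 7 alone holds most of the Ebf3 signal. Lsp1 was at 107 CPM in the myofibroblast-like nuclei of Ctrl at 7 dpi, 53 in ADWA11 and 67.2 in Tgfbr2-cKO.

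Within single nuclei thinned to the same depth, Ebf3 was found mostly with Ebf1 in Tgfbr2-cKO at 21 dpi. Of 335 nuclei with an Ebf1 UMI 36.4% also had Ebf3, and of those without Ebf1 7.19% did. In ADWA11 at 21 dpi these shares were 5.49% and 0.473%. Lhx8 was found in 11.4% of the 132 nuclei with Ebf3 and 4.68% of those without in Tgfbr2-cKO at 21 dpi. In ADWA11 the shares were 3.75% of 80 nuclei and 4.01%, so that no difference was detectable there. All these shares pool the sub-clusters of a library. In Tgfbr2-cKO at 21 dpi sub-cluster 7 held most of the Ebf3 UMIs and had more Ebf1 and Lhx8 than sub-cluster 0. Shares within sub-cluster 7 were not computed.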

How the data were processed

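Single-nucleus RNA was measured in 6 libraries. The authors deposited UMI counts per gene and nucleus, made with Cell Ranger on mm10 (7.1.0 per the submitters' processing notes, 7.2.0 per the file headers). From those counts, nuclei between the 2.5 and 97.5 percentiles of UMIs and genes, and under the 97.5 percentile of mitochondrial share, were kept per library. Doublets were scored against simulated ones and called at a rate set by the number of deposited barcodes of each library, and only whole sub-clusters of them were removed. Nuclei were clustered with Seurat 5.3.0 (SCTransform, 3000 variable genes, 30 components, resolution 0.5, and 0.2 within fibroblasts without the list genes). Clusters were named where at least 3 markers of 1 list, and more than of any other, were raised. A class name was dropped where the nuclei were shallow for their library and no marker of that list was among the leading genes. Sub-clusters with over 50% called doublets, or led by genes of other classes, were left out. UMIs were summed per library and given as CPM. Genes with a mean of 5 CPM or more in 2 libraries were compared, and 0 UMIs were set at a floor of 3. Intervals are exact (Poisson, or conditional binomial for ratios, Clopper-Pearson for shares). With 1 library a group no test was run. The ratio code was tested on simulated data, where the changes missed were decreases, mostly in genes under the CPM minimum. The text names all 10 members, listed genes past 2-fold one way at both times in Tgfbr2-cKO, and the 5 genes most like Erg and Ebf3. Fli1 was named after its values were seen. Members, lists and alternatives were chosen with earlier results of these data known. The alternatives tried were TMM scaling with edgeR 4.0.16, other filters, thresholds and clusterings, each sex alone, and other sets of nuclei.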

Additional observations from a re-analysis of the deposited data

Results flagged for a closer look

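Among factors with a mean of 5 CPM or more in both comparisons, 2 had ratios to Ctrl of opposite sign at the 2 times in both mice, and neither difference was tested. Foxc1 in Tgfbr2-cKO had a log2 ratio of 0.29 (0.06 to 0.50) at 7 dpi and -0.12 (-0.27 to 0.02) at 21 dpi, a difference of 0.41. Foxc2 in ADWA11 had ratios of 0.26 (0.01 to 0.52) and -0.01 (-0.17 to 0.14), a difference of 0.28. Both intervals at 21 dpi include 0, so a change of side was not detectable at this depth, and all 4 ratios are under 2-fold. Lhx8 in ADWA11, left out for its low mean, was also below Ctrl in both mice at 7 dpi, from 1 and 5 UMIs in the mice of either library, and above it in both at 21 dpi.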

How the results depend on the processing

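Of 75 alternative counts of factors past 2-fold, 60 stayed within 1.5 times the reported count and 15 did not, and no ratio called past 2-fold turned its direction. For Tgfbr2-cKO against Ctrl at 21 dpi the count of 4 became 2 (Erg and Ebf2) with the sub-cluster mix of Ctrl imposed and 0 without sub-clusters 6 and 7. At 7 dpi it went from 3 to 5 at a 1.5-fold threshold. For ADWA11 at 7 dpi the count of 1 became 2 with no filter on low values, with sub-clusters led by other classes kept or with the bone-matrix sub-cluster counted as fibroblasts, 3 at 1.5-fold and 4 in female nuclei. Between the Ctrl libraries the count of 2 became 1 with TMM scaling, mean CPM per nucleus, log-normalised clustering, sub-clusters led by other classes kept, the bone-matrix sub-cluster or the cluster with arachnoid markers counted as fibroblasts, and the imposed mix, and the factor lost in each was Foxc2. The alternatives with the arachnoid-marker cluster and without sub-clusters 6 and 7 were chosen after the data were seen. The cause of these moves was not tested, apart from the changed set of nuclei or threshold itself. The Erg ratio in Tgfbr2-cKO at 7 dpi stayed past 2-fold in all 13 alternatives, from -3.74 in male to -1.80 in female nuclei. Log-normalised clustering also gave Tgfbr2-cKO ratios of 2.93 for Lhx8 and 1.83 for Ebf1 at 21 dpi, and ADWA11 ratios of 2.31 for Ebf3 and 2.38 for Lhx8. Filters pooled over libraries gave 1.95 and 6.31 for Ebf3 in Tgfbr2-cKO. TMM scaling moved all ratios of Tgfbr2-cKO at 7 dpi by -0.17 and those of the other comparisons by -0.02 to -0.06. No paired analysis was possible because each group was 1 pooled library. Ratios within female and within male nuclei are among the alternatives. The 290 and 498 fibroblast nuclei of Tgfbr2-cKO limit what could be detected there.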
